A study of Mus musculus with 2 samples.

Results

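Of 8318 Arid1b peaks in the deposited list, 556 lay in intergenic sequence far from coding genes, a share of 6.68% (exact binomial 95% interval 6.16 to 7.24%). A peak was taken as intergenic where its summit, the position of highest signal, lay outside every protein-coding gene, more than 5 kb from any protein-coding boundary and more than 1 kb from any boundary of a long noncoding RNA (lncRNA) gene, by RefSeq genes of GRCm38.p6 (mm10). The rule used position only, so the fold, width and input level of the peaks were free of it. Of the other peaks, 4977 had their summit within 1 kb of a coding boundary, 2262 lay deeper inside a coding gene, 399 lay 1 to 5 kb outside one and 124 lay near an lncRNA boundary.

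Both libraries were made from cultured primary cells labelled as dental mesenchyme. Wild-type C57BL/6 mice gave the cells between postnatal days 3.5 and 7.5, from the apical region of the first mandibular molar, and the culture medium held 10% serum. One group was chromatin precipitated with an Arid1b antibody and the other was input chromatin without antibody, with 1 library each. The series itself is framed around Arid1a and its conditional knockout with Gli1-CreER (Gli1-CreER;Arid1afl/fl), but neither library carries that genotype or an Arid1a antibody by its label. With 1 library a group there was no replicate check of any value and no test was made, and how many mice or cultures stood behind a library is not given in the sources used here. Intervals cover counting error only, and sequenced fragments are not independent molecules.

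Arid1b is a large DNA-binding subunit of the BAF form of the SWI/SNF complex, which uses ATP to move and evict nucleosomes. Besides promoters, BAF complexes are known to bind distal enhancers, which can lie far from the genes they regulate. Intergenic sequence also holds transcription units that code for no protein, among them lncRNAs and the primary transcripts of many microRNAs (miRNAs), short RNAs that repress messenger RNAs through a seed near their 5′ end.

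At 3 intergenic peaks the peak itself covered an annotated miRNA hairpin, and these hairpins are shown as the named sequences that Arid1b signal overlapped directly. They are Mirlet7i at chr10:122985640-122985724 on the minus strand, Mir125b-1 at chr9:41581926-41582002 on the plus strand and Mir760 at chr3:122293585-122293703 on the minus strand, from RefSeq, GRCm38.p6. Capitals mark the mature miRNAs, 5′ to 3′.
Mirlet7i: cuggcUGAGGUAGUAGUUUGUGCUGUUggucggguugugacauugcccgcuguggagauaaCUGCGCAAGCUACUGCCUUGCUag
Mir125b-1: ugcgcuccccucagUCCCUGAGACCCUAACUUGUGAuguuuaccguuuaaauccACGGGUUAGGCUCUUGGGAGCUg
Mir760: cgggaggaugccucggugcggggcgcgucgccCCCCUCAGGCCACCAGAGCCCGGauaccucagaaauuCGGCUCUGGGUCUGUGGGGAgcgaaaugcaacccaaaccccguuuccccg

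Members of the let-7 family lay within 10 kb of intergenic peaks on chromosomes 10 and 13, and on chromosome 15 a further pair lay 25093 and 25809 bp beyond a run of them. Their mature 5p sequences are shown because they share 1 seed, given in capitals (bases 2 to 8, RefSeq).
let-7i-5p: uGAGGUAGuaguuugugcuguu
let-7a-5p: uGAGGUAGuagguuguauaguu
let-7d-5p: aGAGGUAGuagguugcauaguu
let-7f-5p: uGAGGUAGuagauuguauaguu
let-7b-5p: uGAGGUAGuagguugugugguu
let-7c-5p: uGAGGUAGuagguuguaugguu

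The peak over Mirlet7i was among the 12 strongest intergenic peaks. It spanned chr10:122985301-122985832, and the authors' deposited list gave it a fold over input of 6.51 (95% Poisson interval of the summit pileup 5.01 to 8.31). That fold, like every fold and q-value of a peak below, is the authors' own value, taken at the summit. The 3 neighbouring intergenic peaks had folds of 3.51, 3.15 and 4.54, so that 4 peaks stood within 2304 bp around the hairpin. The peak over Mir125b-1 had a fold of 2.99 (2.02 to 4.28). It was 1 of 8 intergenic peaks within 7046 bp of Mir100hg, the lncRNA that hosts this miRNA, with folds from 2.89 to 4.54. The peak over Mir760 had no other intergenic peak within 50 kb and a fold of 4.03 (2.88 to 5.49). Its summit also lay in the RefSeq gene Gm40190 and 486 bp from the tRNA gene n-TRtct2.

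The Mirlet7a-1, Mirlet7f-1 and Mirlet7d cluster on chromosome 13 had 2 intergenic peaks on 1 side, with folds of 3.67 (2.63 to 4.98) and 4.55 (3.48 to 5.84). The nearer summit lay 7298 bp from Mirlet7a-1. On chromosome 15, a run of 10 intergenic peaks over 28148 bp ended 22263 bp before Lncppara, the lncRNA that holds Mirlet7c-2 and Mirlet7b. Folds in this run went from 2.89 to 5.07 with a median of 3.87. The strongest peak of the run had an interval of 3.90 to 6.47, and the intervals of the strongest peaks at the 3 let-7 loci all overlapped.

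Intergenic peaks stood more densely near miRNA genes than elsewhere. Density was counted over the positions of chromosomes 1 to 19 and X that meet the rule, here called intergenic territory: 1407 Mb, or 53.8% of the span between the first and last annotated genes. This territory held 0.395 intergenic peaks per Mb (exact Poisson 95% interval 0.363 to 0.430), against 6.44 peaks of any other class per Mb in the rest of the span. Within 5 kb of a miRNA gene, 21 intergenic peaks fell in 2.04 Mb of territory, 10.3 per Mb (6.37 to 15.7). These 21 made up 3.78% (2.35 to 5.72%) of the intergenic peaks, beside 2.41% of the boundary peaks and 2.30% of those inside coding genes. The share was 2.51% (1.21 to 4.56%) at 1 to 5 kb outside coding genes and 1.61% (0.196 to 5.70%) at lncRNA boundaries. The interval of the intergenic share thus included the boundary and 1 to 5 kb values. Mir125b-1 had 7 of these peaks within 5 kb and Mirlet7i had 4. After peaks closer than 500 bp were merged, the intergenic share was 2.54% (1.32 to 4.40%). Because intergenic peaks came in runs they were not independent: chained at gaps of at most 12 kb, the 556 peaks formed 426 runs, of which 10 (2.35%) had a miRNA gene within 5 kb.

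Of 1228 miRNA genes, 25 had an intergenic peak within 10 kb and 11 had one within 5 kb. Of the 274 whose own position met the rule, 14 and 8 did. Mir193a lay 116 bp from a summit with a fold of 3.03, and Mir7671 lay 135 bp from one with a fold of 3.12. Mir22 had a peak of 3.48 at 3738 bp, and Mir143 and Mir145a, a pair known for their high level in smooth muscle and other mesenchymal cells, had a peak of 4.23 at 4821 and 3450 bp. At distances over 5 kb stood the Mir23a, Mir27a and Mir24-2 cluster with a peak of 4.65, Mir21a with 3.61, and Mir34a, a p53 target, with 3.76. Apart from the Mirlet7i peak, every peak within 10 kb of a miRNA gene had a fold under 5.

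Across all 556 intergenic peaks, Arid1b signal was slightly lower and narrower than at gene boundaries. The median fold was 3.51 (order-statistic 95% interval 3.51 to 3.61, quartiles 3.20 and 4.03), beside 3.82 (3.77 to 3.82) at coding boundaries and 3.61 (3.61 to 3.66) inside coding genes. A fold of at least 5 was reached by 10.2% of all peaks and by 43 of the 556 intergenic ones, or 7.73% (5.65 to 10.3%). At the boundaries 549 peaks reached it, or 11% (10.2 to 11.9%). Inside coding genes 8.75% did, at 1 to 5 kb outside them 11.5% (8.57 to 15.1%), and at lncRNA boundaries 9.68%. The median width was 267 bp (261 to 278), against 307 bp (302 to 315) at boundaries and 315 bp (307 to 322) inside coding genes. At a −log10 q of at least 10 the order in fold was gone. Medians were 4.54 for the 143 intergenic peaks left, 4.54 for boundary peaks and 4.54 inside coding genes. The order in width turned against boundary peaks, at 422 and 366 bp, while peaks inside coding genes stayed wider, at 444.5 bp. Fold and q-value come from the same pileup, so this filter also selects on fold. Single peaks were measured less finely than these medians: the intervals of 495 intergenic peaks (89.0%) included the median fold of the whole list.

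The input behind the peaks differed between classes as well. MACS2 sets each peak against the larger of a local input level and a genome-wide background, and at 353 intergenic peaks (63.5%, 59.3 to 67.5%) the expected level was the background itself. The share was 44.6% (43.2 to 46.0%) at boundaries and 46.2% (44.1 to 48.2%) inside coding genes. Other peaks outside coding genes were closer to the intergenic ones, with 59.4% (54.4 to 64.3%) at 1 to 5 kb and 55.6% (46.5 to 64.6%) at lncRNA boundaries. Among peaks at the background level alone, the median fold was 3.61 for intergenic peaks and 4.03 for boundary peaks. The part of the input level in the difference of folds was not tested.

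**Figure D1:**
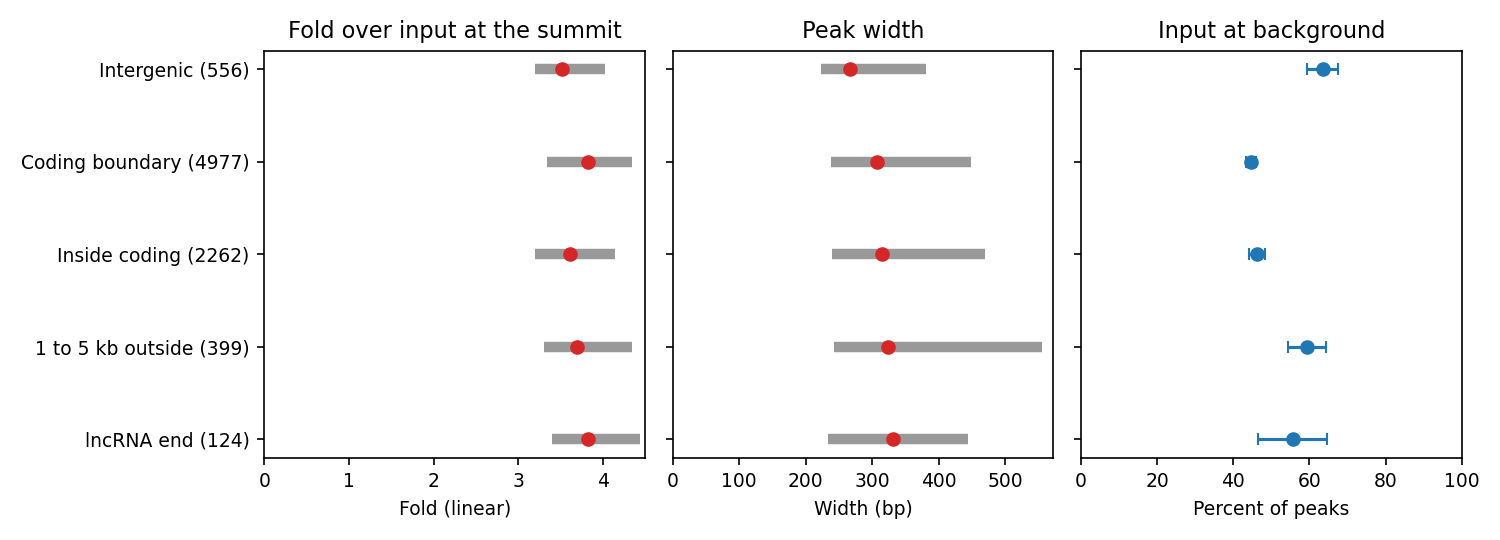
Fold over input (linear), peak width (bp) and the percent of peaks whose expected input is the genome background, for the 5 position classes with their numbers of peaks. Red points are medians, grey bars run between quartiles, and blue bars are exact binomial 95% intervals; the intergenic class has a median fold of 3.51 and a background share of 63.5%.

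Wide peaks were few but stood out among the strong ones. Of the intergenic peaks, 31 (5.58%, 3.82 to 7.82%) were at least 1 kb wide, beside 2.89% at boundaries and 6.41% inside coding genes. The share was higher at 1 to 5 kb outside coding genes, at 11.8% (8.78 to 15.4%), and 4.84% (1.80 to 10.2%) at lncRNA boundaries. Wide intergenic peaks made up 16 of the 43 intergenic peaks with a fold of at least 5, and 8 of the 12 strongest. Width and fold come from the same pileup, so their joint rise is a description.

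The strongest intergenic peak was narrow. It spanned 428 bp at chr17:86150823-86151250, 5840 bp from Srbd1, a gene for a protein with an S1 RNA-binding domain, with a fold of 10.9 (8.97 to 13.2). The second, near the predicted gene Gm38821, covered 5628 bp with a fold of 8.98 (7.21 to 11.1). Tbx18, a T-box transcription factor of mesenchymal progenitors, had a 2342 bp peak with a fold of 8.67 (6.93 to 10.7), 6856 bp beyond its start. Meis1, a TALE homeobox factor, had one of 2894 bp and 7.54 (5.92 to 9.47), which lay inside the lncRNA 8430419K02Rik. Sim2, a bHLH-PAS factor of the fixed dental mesenchyme list, had one of 2313 bp and 6.82 inside the lncRNA Gm31175. The interval of the first peak overlapped those of Gm38821, Tbx18 and Meis1 and lay above that of Sim2 (5.28 to 8.66).

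Others of the 12 stood near genes of other kinds. Rasgrf1, a Ras exchange factor and an imprinted gene in mouse, had a 1753 bp peak with a fold of 8.05 (6.38 to 10.0) at 26665 bp. Igf2bp3, an RNA-binding protein of fetal tissue, had a fold of 6.30 (4.83 to 8.08) at 12190 bp. A 1915 bp peak with a fold of 6.30 (4.86 to 8.05) lay inside Dleu2, an lncRNA that hosts the Mir15a and Mir16-1 hairpins. Onecut2, a homeobox factor, and Zfp395, a zinc finger gene, completed the group with Slc38a10 and Mirlet7i, at folds of 6.50 and 6.82 for the first pair.

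The peak near Slc38a10 was the sole intergenic peak to overlap one of the RefSeq promoter windows used here. The rule keeps summits more than 1 kb from lncRNA boundaries and 5 kb from coding ones, so few such overlaps were possible. The windows also did not cover every gene. This peak spanned chr11:120185744-120189988 with a fold of 7.87 (6.23 to 9.81). It covered the whole lncRNA gene 2810410L24Rik (chr11:120186650-120189856) and reached into its promoter window. The 182 shared bases, at chr11:120189807-120189988 on the minus strand, had a GC content of 72.0% and 15 CpG pairs. Their ratio of observed to expected CpG was 0.653. Over the whole window it was 0.659, which 12% of 11588 lncRNA promoter windows reached. The shared bases are shown 5′ to 3′ with each CpG in capitals (RefSeq, GRCm38.p6).
2810410L24Rik: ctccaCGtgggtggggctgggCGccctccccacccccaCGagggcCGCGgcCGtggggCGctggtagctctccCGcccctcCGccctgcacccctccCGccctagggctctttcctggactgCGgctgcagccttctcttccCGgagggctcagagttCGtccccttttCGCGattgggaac

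Intergenic peaks thinned out with distance from coding genes. The median distance to the nearest coding boundary was 31.3 kb, with quartiles of 11 and 77.3 kb and a range from 5.02 to 1035 kb. Territory 5 to 10 kb from a gene held 1.20 peaks per Mb (0.994 to 1.43), and territory more than 100 kb away held 0.154 per Mb (0.127 to 0.185). The latter made up 52.6% of the territory and held 114 peaks (20.5%). Median fold changed little along this distance, being 3.56 at 5 to 10 kb, 3.61 at 20 to 50 kb and 3.33 beyond 100 kb. Strong and wide peaks were fewer far away. A fold of at least 5 was reached by 13 of 120 peaks (10.8%) at 5 to 10 kb and by 4 of 114 (3.51%) beyond 100 kb. Peaks at least 1 kb wide made up 10.8% (5.90 to 17.8%) and 1.75% (0.213 to 6.19%) there. The bins between had 6.59 to 8.76% and 3.19 to 6.57%, in that order. Inside lncRNA bodies, 158 peaks (28.4%, 24.7 to 32.4%) stood in 10.4% of the territory, or 1.08 per Mb (0.915 to 1.26) against 0.316 (0.286 to 0.349) outside. The 2 groups had median folds of 3.51 and 3.55. How far mappability and assembly gaps set these densities was not tested.

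**Figure D2:**
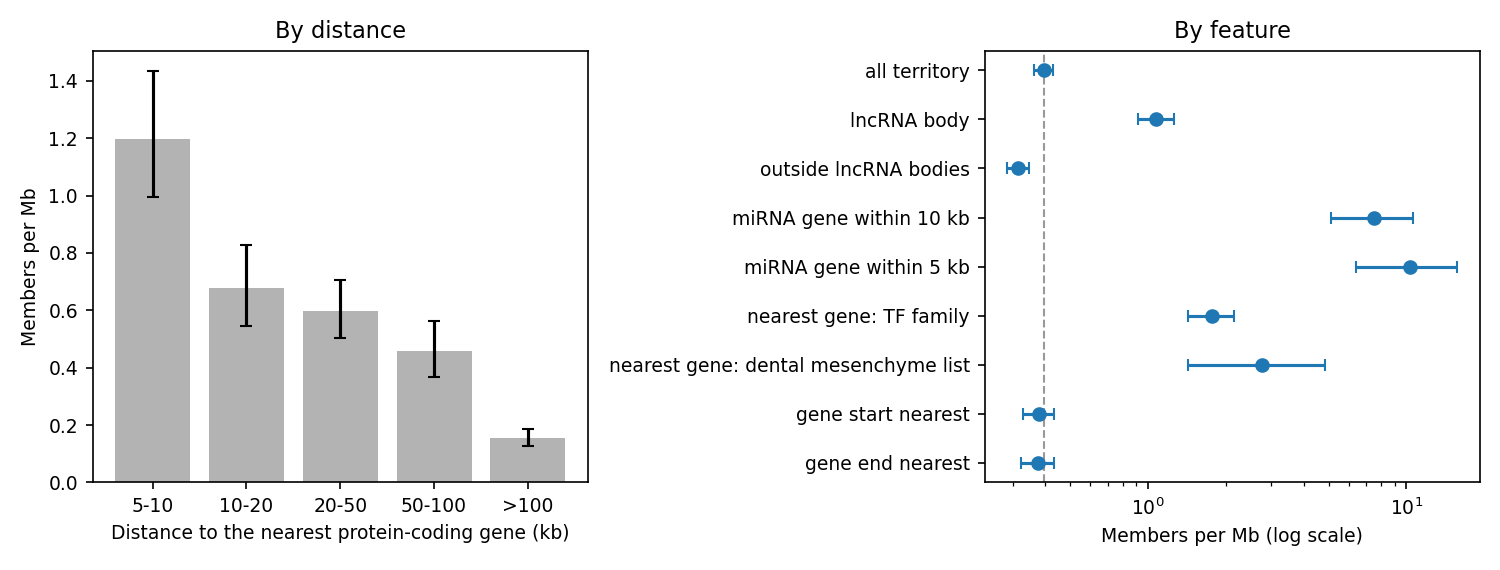
Intergenic Arid1b peaks per Mb of intergenic territory by distance to the nearest coding gene (linear axis) and by nearby annotation (log axis, dashed line at all territory), with exact Poisson 95% intervals. Density falls from 1.20 per Mb at 5 to 10 kb to 0.154 beyond 100 kb, and reaches 10.3 within 5 kb of miRNA genes.

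Intergenic peaks were denser near genes of some transcription factor families. The list of families was set by gene symbol after the values had been seen, so what follows is a description of genes chosen with the pattern in view. It held 326 of 21887 coding genes (1.49%). Such a gene was the nearest one for 95 intergenic peaks (17.1%, 14.0 to 20.5%), on 3.83% of the territory. At 5 to 10 kb their territory held 22 peaks per Mb (16.1 to 29.5), against 0.765 (0.602 to 0.959) near other genes. At 10 to 20 kb the densities were 3.90 (2.13 to 6.54) and 0.591 (0.469 to 0.735), and at 20 to 50 kb 1.52 (0.786 to 2.66) and 0.565 (0.470 to 0.673). At 50 to 100 kb, with 0.804 (0.323 to 1.66) and 0.442 (0.353 to 0.547), the intervals overlapped. Beyond 100 kb they were apart again, at 0.538 (0.313 to 0.861) and 0.137 (0.111 to 0.167). The share of peaks nearest to these families was 37.1% among peaks 1 to 5 kb outside genes, 13.8% inside coding genes and 4.70% at boundaries. Counted by run, 64 of 426 runs (15%) were nearest to such a gene.

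**Figure D3:**
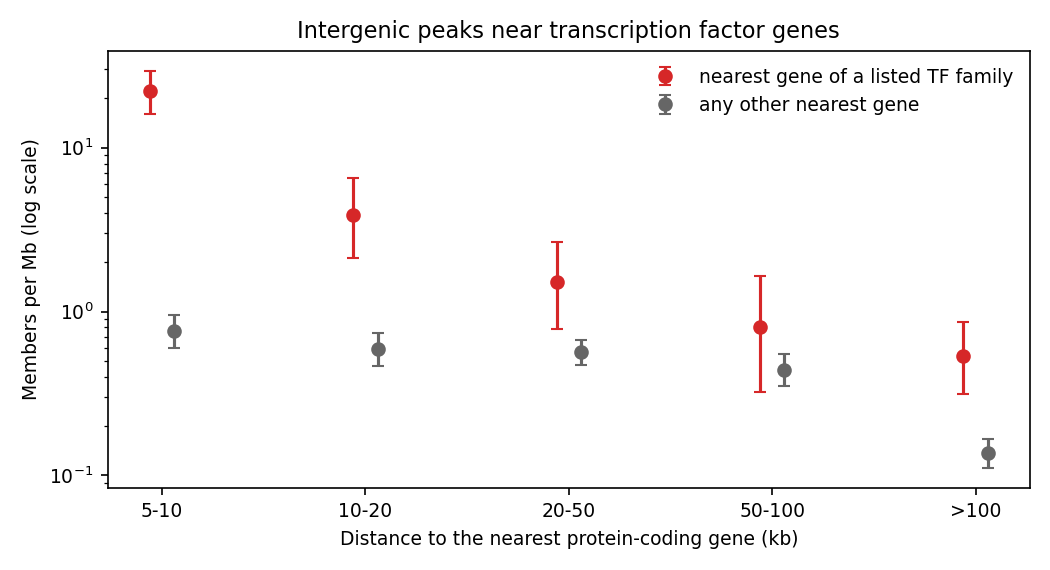
Intergenic peaks per Mb of territory (log scale) against distance to the nearest coding gene, for nearest genes in the listed transcription factor (TF) families and for all other nearest genes; bars are exact Poisson 95% intervals. The groups stand at 22 and 0.765 per Mb at 5 to 10 kb, and of the 5 distance bins their intervals overlap only at 50 to 100 kb.

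Wide peaks were more often nearest to these genes, in the intergenic class as in the others. Of the 31 wide intergenic peaks, 12 (38.7%, 21.9 to 57.8%) were nearest to a listed factor, and of the 525 narrower ones 83 (15.8%, 12.8 to 19.2%). Among wide peaks of the other classes the share was 27.1% at boundaries, 41.4% inside coding genes and 57.4% at 1 to 5 kb outside them. The median fold was 3.61 near listed factors and 3.51 near other genes, and 13.7% and 6.51% reached a fold of 5. Nr2f2, an orphan nuclear receptor, had 6 intergenic peaks with folds up to 3.82, of which 5 lay in the lncRNA Gm29683. Foxd1, a forkhead factor of stromal cells, had 5 with folds up to 4.13. Vax2, an eye homeobox factor, had 4 up to 5.79, all in the antisense lncRNA Vax2os. Sox2, the pluripotency and neural progenitor factor, also had 4, up to 4.85 and all in Sox2ot. Meis2 reached 6.10 and Nfib 4.77, with 3 peaks each. The nearest gene is a label of position and was not shown to be the target.

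**Figure D4:**
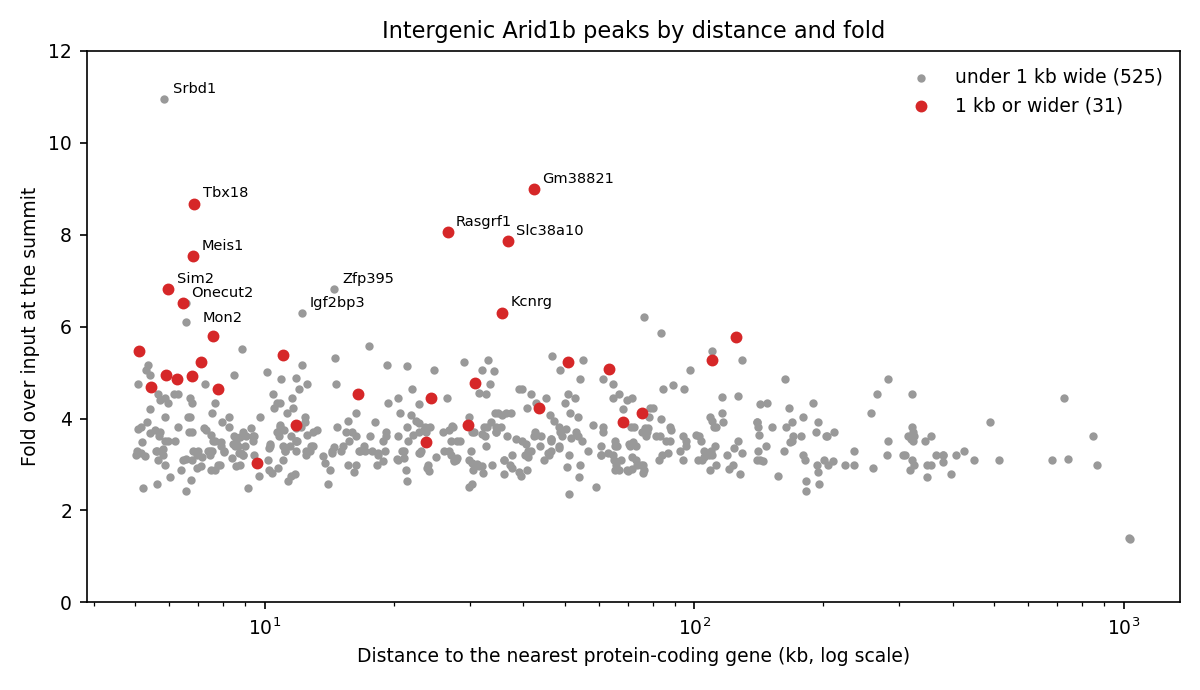
Fold over input at the summit (linear) against distance to the nearest coding gene (kb, log scale) for the 556 intergenic peaks, with the 12 strongest named by their nearest coding gene. Red points are the 31 peaks at least 1 kb wide, which include 8 of the 12 strongest, and the 2 peaks farthest from any coding gene have the lowest folds.

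Genes of tooth and skeletal mesenchyme were near a few peaks of moderate fold. Of 32 genes in the dental mesenchyme list, 9 were nearest to an intergenic peak, with 12 peaks in all and 2.77 per Mb of the territory nearest to the list (1.43 to 4.84), against 0.395 overall. As a share of peaks the list was no larger in the intergenic class (2.16%) than over all peaks (2.27%). The median fold of its intergenic peaks was 3.72. Tfap2a, a neural crest factor, had a peak of 4.03. Dlx2 and Dlx6, homeobox factors of the jaw, each had a peak of 3.72. Of 24 osteogenic genes, 5 were nearest to 8 peaks, 1.33 per Mb (0.573 to 2.62). The osteogenic list held 1.44% of intergenic peaks, beside 0.818% of all peaks. Sp7, the osteoblast factor osterix, had 5.0 (3.73 to 6.58) at 10097 bp, Runx1 had 4.50 at 126676 bp and the collagen gene Col1a2 had 4.13 at 16282 bp.

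Signalling and immediate early genes gave similar levels. The AP-1 and immediate early list had 9 peaks at 6 of 28 genes, 1.81 per Mb (0.828 to 3.44), among them Nr4a1 with 4.75, Jun with 4.03 at 109038 bp and Klf6 with 3.51. In the TGF-beta and BMP list, 4 of 32 genes had 5 peaks, with 4.47 for the inhibitor Smad7, 3.92 for the receptor Tgfbr2, 3.30 for the inhibitor Smad6 and 3.25 for the target Id3. In the Wnt, FGF and Notch list, 5 of 47 had 1 each, including the ERK phosphatase Dusp6 with 4.13, the ETS factor Etv4 with 4.08 and the Wnt effector Lef1 with 3.51. The contractile and matrix list had 5 peaks at 4 of 36 genes, with 3.77 near Col5a1 and 3.72 near Myh9, and the YAP/TEAD list had 1 of 19, Amotl2 with 4.03. The AP-1 and immediate early list held 1.62% of intergenic peaks, beside 0.830% of all peaks. For TGF-beta and BMP these shares were 0.899% and 0.793%, and for Wnt, FGF and Notch 0.899% and 0.709%. For contractile and matrix genes they were 0.899% and 0.890%, and for YAP/TEAD 0.180% and 0.481%.

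No intergenic peak was nearest to any of 17 Hedgehog pathway genes, 20 cell cycle arrest genes or 28 SWI/SNF subunit genes. The territories nearest to these lists were 2.17, 1.96 and 1.72 Mb, in that order. A count of 0 there still allows up to 1.70, 1.89 and 2.15 peaks per Mb, above the 0.395 of all territory. A density like that of all territory was thus not detectable in any of them. Over all peaks, the shares nearest to these lists were 0.289%, 0.469% and 0.349%. Markers of cells other than mesenchyme gave too little territory to read a count of 0. None of 12 dental epithelium, 10 endothelial or 12 blood cell genes was nearest to an intergenic peak, and of 12 neuronal and glial genes Snap25 was, with 3.82 (2.71 to 5.25). The counts of 0 allowed up to 7.97, 2.81 and 4.93 peaks per Mb, in that order, all above the overall density. Peaks do not measure cell makeup, so the labelled cell type could not be checked from them. Over all lists, 46 intergenic peaks (8.27%) were nearest to a member, beside 8.01% of all peaks.

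Genes next to intergenic peaks often had a boundary peak too. Of the 401 nearest coding genes, 171 (42.6%, 37.7 to 47.6%) had an Arid1b peak within 1 kb of a boundary, against 21.5% (21.0 to 22.1%) of all coding genes. Which end of the gene was nearer made no visible difference: of 406 peaks whose nearest gene had a known strand, 218 (53.7%) were nearer its start, and 53.6% of such territory was.

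Many intergenic peaks came in runs. Within 5 kb of another lay 196 of them (35.3%), a share that was 15% after peaks closer than 500 bp were merged and 12.6% at a −log10 q of at least 10. Of the 426 runs chained at 12 kb, 86 held more than 1 peak. Chained at gaps of at most 50 kb, the runs with the most peaks were that before Lncppara and one of 10 over Malat1 and Neat1, the abundant nuclear lncRNAs of speckles and paraspeckles. There, 2 of the intergenic peaks lay in Malat1 and 5 in Neat1, with folds in the run from 2.83 to 4.93. Further peaks in and beside Malat1, with folds from 3.51 to 4.74, had summits within 1 kb of an lncRNA boundary and were counted in that class. The strongest intergenic peak of the run was also the widest of all intergenic peaks, 6850 bp at chr19:5839594-5846443, with a fold of 4.93 (3.76 to 6.35). Lncpint, a p53-induced lncRNA, held 5 intergenic peaks, and Carmn, a smooth muscle lncRNA, held 4.

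**Figure D5:**
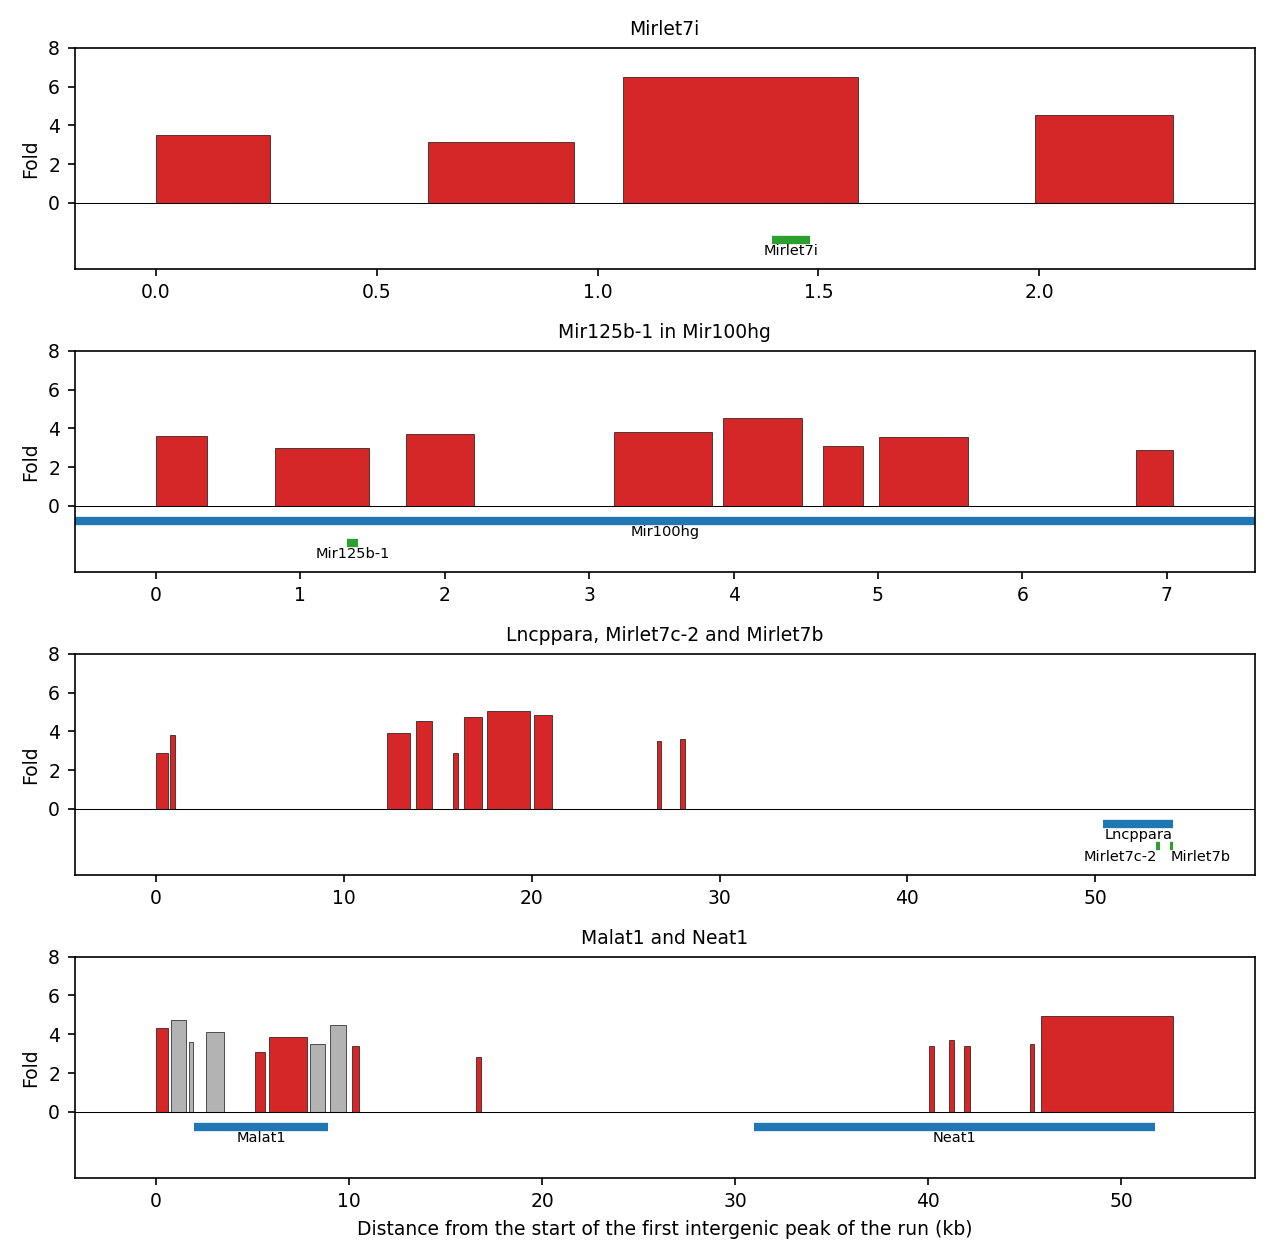
Fold over input (linear, bar height) and extent (bar width, kb from the first intergenic peak) of Arid1b peaks at 4 loci, with intergenic peaks in red, other peaks in grey, lncRNA genes in blue and miRNA hairpins in green. Only peaks within the extent of each run are drawn, so the blank stretch at Lncppara and its miRNAs does not show that peaks were absent there. The tallest bar over Mirlet7i has a fold of 6.51, and the widest, at Neat1, spans 6850 bp.

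A few intergenic peaks lay at other noncoding genes. Within 1 kb of a summit there was a miRNA, pseudogene, tRNA or other small feature for 32 peaks. Pseudogenes accounted for 13 and tRNA genes for 3. Terc, the RNA template of telomerase, had a peak of 3.61 (2.53 to 5.01) at chr3:96414537-96414761.

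The X chromosome was sparse in peaks of all classes, with 45 of 8318. Of the 556 intergenic peaks it had 6, or 0.0515 per Mb (0.0189 to 0.112). Its interval overlapped that of the lowest autosome, chromosome 14 with 0.171 (0.0883 to 0.298), and lay below that of the highest, chromosome 19 with 0.910 (0.577 to 1.37).

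The 2 peaks farthest from coding genes differed from the rest in input. They lay over 1 Mb from Lrrc4c on chromosome 2 at chr2:98662413-98662613 and chr2:98666733-98667152, with folds of 1.41 (1.26 to 1.57) and 1.37 (1.23 to 1.52), the only 2 intergenic folds under 2. Their summit pileups were 333 and 368 fragments over expected input levels of 236 and 268, against a median intergenic pileup of 35 and a background of 8.68. No check against a list of problem regions of the genome was made, and whether these are binding sites was not tested. The next farthest, near Ttll7 at 869214 bp and Cited2 at 848929 bp, had folds of 2.99 and 3.61.

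Peaks on either side of the distance limits had similar folds. Just beyond 5 kb stood peaks near Neurog2 with 3.20, Sdhd with 3.30 and Foxa1 with 3.78, and just short of it peaks near Bri3bp with 3.41, Rb1cc1 with 3.10 and Map1lc3b with 4.03. At the 1 kb limit from lncRNA genes, those inside the class were near Gm8273 with 4.23, Snhg15 with 3.11 and Gm32725 with 3.30. Those left out were near Sox1ot with 3.26, Gm16551 with 4.75 and Gm41307 with 3.77.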

How the data were processed

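One list of Arid1b ChIP-seq peaks, called over input from 1 library each, was analysed. Per the submitters' processing notes the build was mm10 and the tools were Bowtie2 2.2.5, MACS2 2.1.1, FastQC 0.11.8 and Picard, with no role or parameter given, and read numbers were not given in the sources used here. For every peak the authors deposited its position and summit offset, a score, the fold over input as a linear ratio, and both a p-value and a q-value as −log10. The deposited score equalled 10 times the −log10 p without its decimals in 100% of peaks and was not used further. The lowest deposited −log10 p was 5.02.

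Members and gene lists were chosen with earlier results of these data known, and the transcription factor families after the values were seen. The whole pileup and the expected input at each summit were solved from the fold and p-value by the MACS2 formulas, with a largest error of 0.000162 in −log10 p. Fold intervals carry the exact Poisson 95% limits of the pileup and treat the expected input as known. Shares have Clopper-Pearson intervals and densities exact Poisson intervals. Intergenic territory was sampled every 100 bp. The recovery was tested on simulated peaks. Python 3.11.15, pandas 2.3.3 and scipy 1.17.1 were used, and coordinates are 1-based.

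The named peaks were the 12 strongest, the widest, the farthest, the strongest of the largest runs and of each other feature class, those beside each distance limit, and up to 4 for each list. Peaks near miRNA genes, lncRNAs and transcription factor genes outside this rule, and those compared in a locus, were chosen after their values were seen. Some named peaks under this rule are left out of the text. Strand came from the RefSeq promoter table and was known for 17492 of 21887 coding genes. Of the 25 miRNA genes within 10 kb of a peak, 23 had a mature sequence in the RefSeq table. Motif, GC and repeat content of the peaks were not analysed here, since no genome sequence was used. Alternatives changed the peak threshold, the distance, the barred gene types, the merging of peaks, the input level and the use of the whole interval.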

Additional observations from a re-analysis of the deposited data

How the results depend on the processing

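The use of whole peak intervals (525 peaks) moved none of 13 results beyond its counting interval. A −log10 q of at least 5 moved the median fold to 3.72 and the share within 5 kb of another intergenic peak to 28.9%. A −log10 q of at least 10 left 143 peaks with a median fold of 4.54, a width of 422 bp, 12.6% within 5 kb of another and 23.1% whose nearest gene had a boundary peak. A fold of at least 5 left 43 peaks, with a median distance of 21.4 kb, a fold of 5.38, a width of 745 bp and 58.1% at background input. Of these 43, 30.2% were nearest to a listed transcription factor family, 6.98% to a gene with a boundary peak and 4.65% to a gene of a fixed list, 2.33% were near a miRNA gene and 4.65% lay within 5 kb of another.

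Beyond 10 kb, the distance was 46.1 kb and the transcription factor share 11.5%. Beyond 2 kb, the distance was 14.6 kb, that share 22.4%, the fixed list share 12.1% and the share within 5 kb of another 39.7%. Beyond 50 kb, 205 peaks had a distance of 110 kb, with 3.41% at other features, 11.7% nearest to a transcription factor, 38.5% to a gene with a boundary peak and 69.8% at background input. Barring every gene type by construction put other features and lncRNA bodies at 0%, and the miRNA share at 0.804%. Leaving out lncRNA bodies put the lncRNA share at 0% and the transcription factor share at 13.3%. Merging peaks closer than 500 bp put the share within 5 kb of another at 15%. The 353 peaks at background input, a share of 100% by construction, had 25.5% whose nearest gene had a boundary peak and 23.8% within 5 kb of another. The q-value, fold and input settings removed boundary peaks as well as intergenic ones. The share of all coding genes with a boundary peak, 21.5% in the full list, was not recomputed under these settings. The filtered shares therefore cannot be set beside it, and the causes of their shifts were not tested. The alternatives for lncRNA, miRNA, other features, chromosomes and transcription factors were chosen after seeing the data. No paired analysis was possible because each group had 1 library. Library depth is unknown, and a single pileup, with a median of 35, gave folds whose intervals mostly included the median of the list.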
